A study of Mus musculus with 25 samples.

Results

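Interstitial macrophages of the mouse lung were compared by RNA sequencing between a population sorted as CD11c+ and one sorted as CD11c-, in cells labelled wild type (WT) from lungs that carried B16 melanoma. The members were chosen by their labels alone: chimera kind, tumor, genotype and sorted population. They make up 4 of the 25 libraries of the series, 2 CD11c+ and 2 CD11c-. In these chimeras, B6/BoyJ recipient mice had been given a mixture of Il9r-/- marrow and BoyJ WT marrow, so the WT cells shared the lung with cells labelled as lacking the interleukin-9 receptor. The labels give no age, name no animal and do not say how CD11c- cells were gated. Nothing in them says whether libraries of a group came from separate mice, so the p-values cover the spread between libraries, which may be technical. The comparison groups used beside them were 3 CD11c+ and 3 CD11c- WT libraries from the second kind of chimera, in which WT marrow was mixed with Arg1 conditional knockout (ARG1CKO) marrow, and 3 CD11c+ and 3 CD11c- libraries labelled Il9r knockout (KO) from the IL9R chimeras. All carried B16 tumor and 1 batch label, and the labels name neither the Cre driver of the conditional allele nor the host cells left in these lungs.

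Interstitial macrophages live in the lung tissue around airways, vessels and nerves, whereas alveolar macrophages live in the air spaces. In mice they are commonly divided into a Lyve1-high, MHC class II-low population along vessels and a Lyve1-low, MHC class II-high population that often carries CD11c, the integrin alpha X chain encoded by Itgax. CD11c is also carried by alveolar macrophages and dendritic cells, and blood monocytes that enter the lung can become interstitial macrophages.

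The sort was visible in its own gene. Itgax (chr7:128129547-128150657, mouse build mm10) stood at 32.7 and 16.6 CPM in CD11c- and 428 and 428 CPM in CD11c+ cells, where CPM is the count per 1000000 counts after TMM scaling of library sizes. The first value of each pair is library 1 and the second is library 2. Both CD11c+ libraries lay far above both CD11c- libraries (log2FC 4.12 ± 0.47, adjusted p = 0.000267), which checks the gate and is not a finding. Log2 fold changes (log2FC) are given ± SE, and a positive value means higher in CD11c+ cells. The SE was worked back from the edgeR quasi-likelihood test, as the absolute log2FC divided by the square root of its F statistic. Every pan-macrophage marker examined was present in all 4 libraries: Adgre1, the F4/80 antigen, stood at 993 and 688 against 811 and 726 CPM, Csf1r, the receptor of macrophage colony-stimulating factor, at 2367 and 1820.0 against 1568 and 1349 CPM, and Cd68 at 2259 and 2432.5 against 2880.3 and 2849.9 CPM, the CD11c- libraries first. Of 13 such markers, Lyz2, which encodes lysozyme, rose in the CD11c+ cells (log2FC 1.31 ± 0.35, adjusted p = 0.0471), and Itgam, the integrin alpha M chain of CD11b, fell from 1622 and 1522 to 709.5 and 613 CPM (log2FC -1.25 ± 0.27, adjusted p = 0.0149). Ptprc, which encodes CD45, stood at 739 and 275 CPM in CD11c- and 387 and 310.2 CPM in CD11c+ cells and was not called (adjusted p = 0.543). When single libraries were left out, the call was lost for Lyz2 (any, 1.04 to 1.55) and Itgam (CD11c- 1 or CD11c+ 1 or CD11c+ 2, -1.36 to -1.15), at adjusted p from 0.0706 to 0.332. In such sentences the brackets give the library left out and the log2 fold change without it, except where a group was left with no read; no call changed direction.

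Depth was alike in the 4 libraries, at 45761042 and 40553019 counts for CD11c- and 43484419 and 36083478 for CD11c+, within a range of 32308968 to 56904167 over the series. The CD11c+ pair was the tighter: 255 of 8019 well-expressed genes (3.18%) lay over 2-fold apart between its libraries, against 840 (10.5%) in the CD11c- pair. The knockout target goes against the genotype labels. Il9r carried 0 reads in all 12 libraries labelled WT, which allows up to 3 reads each (0.0656 to 0.0831 CPM in the 4 libraries), whereas the 6 tumor libraries labelled Il9r KO held 83 to 562 reads and an ARG1CKO library held 61. Which stretch of Il9r is deleted is not given in the sources used here. Both arms of the comparison carry the same genotype label, and "CD11c+" and "CD11c-" below mean the libraries labelled WT in the IL9R chimeras.

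Of 13434 genes tested, 411 (3.06%) differed between the populations at an adjusted p under 0.05, the threshold for a gene being called (edgeR quasi-likelihood test, Benjamini-Hochberg adjustment over all genes). In CD11c+ cells 184 were higher (1.37%) and 227 were lower (1.69%), and the median log2 fold change over all genes was 0.00. In each of the 411 genes the CD11c+ and CD11c- libraries did not overlap in CPM, as was also true of 5870 of all genes tested (43.7%). With the library numbers as a block, 295 genes were higher (2.20%) and 349 lower (2.60%), 4.79% of all genes together. The counts rested heavily on single libraries: without CD11c+ library 2 there were 34 higher and 23 lower, without CD11c+ library 1 there were 97 and 80, without CD11c- library 1 there were 52 and 43, and without CD11c- library 2 there were 183 and 284. A core of 34 genes, 21 higher and 13 lower, was called in the full fit and in all 4 of these leave-outs. It held Itgax, Ccl17, Cd9, Cd63, Pld3, Mmp12, Acp5 and Dcstamp among the higher genes, and F13a1, Cbr2, Ednrb, Fam20a, Padi4 and Oas2 among the lower genes. In bulk RNA, fewer cells of a type and less RNA per cell cannot be told apart, here and in every result that follows.

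**Figure D1:**
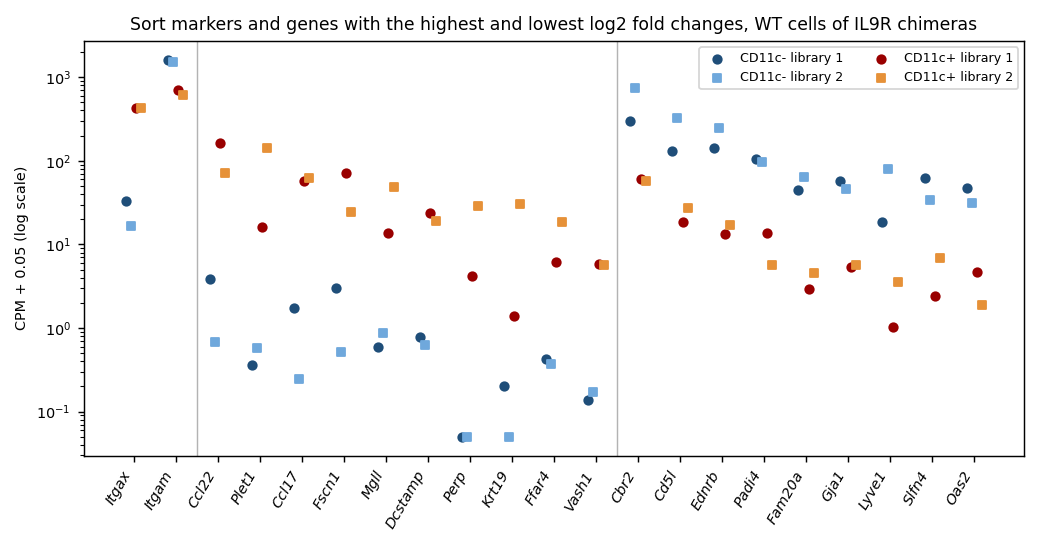
CPM plus 0.05 (log scale) in each of the 4 libraries for the sort markers Itgax and Itgam, 10 genes with the highest and 9 with the lowest log2 fold changes among called genes that met the naming rule. Each point is 1 library. The naming rule took only genes whose red and orange CD11c+ points do not overlap the blue CD11c- points, so that gap was set by the selection. Perp, Krt19 and Plet1 differ widely between the CD11c+ libraries.

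The genes highest in CD11c+ over CD11c- cells included the chemokines Ccl17 and Ccl22, which both bind CCR4, a receptor on regulatory and helper T cells. Ccl17 (chr8:94810453-94812036) stood at 1.69 and 0.199 CPM in CD11c- and 57.4 and 61.7 CPM in CD11c+ cells. Nearly all of its signal was in the CD11c+ libraries, which were close to each other (log2FC 5.95 ± 1.09, adjusted p = 0.00658). Ccl22 (chr8:94745590-94751699) stood at 3.81 and 0.622 CPM in CD11c- and 163.5 and 70.9 CPM in CD11c+ cells, so that CD11c+ library 1 held over 2-fold the level of library 2 (log2FC 5.71 ± 1.45, adjusted p = 0.0419). Fscn1, an actin-bundling protein of migrating dendritic cells, followed the same order at 2.95 and 0.473 CPM in CD11c- and 70.6 and 24.2 CPM in CD11c+ cells (log2FC 4.78 ± 1.01, adjusted p = 0.0148). Ccl5 and Cxcl9, chemokines that draw T cells, also rose, at 9.75 and 7.24 against 38.2 and 22.6 CPM for Ccl5 (log2FC 1.84 ± 0.38, adjusted p = 0.0119) and 17.5 and 9.05 against 57.0 and 36.8 CPM for Cxcl9 (log2FC 1.82 ± 0.41, adjusted p = 0.0187). On leaving out 1 library at a time, calls were lost for Ccl22 (any, 4.94 to 7.55), Fscn1 (CD11c- 2 or CD11c+ 1, 3.81 to 4.01), Ccl5 (CD11c- 1 or CD11c- 2 or CD11c+ 1, 1.41 to 2.07) and Cxcl9 (CD11c- 2 or CD11c+ 1 or CD11c+ 2, 1.43 to 2.10), at adjusted p from 0.0558 to 0.168. Ccl17 kept its call without any one of the 4 libraries. While the call held, the fold moved by over 1.5 times for Ccl17 (8.20 without CD11c- 1 and 5.13 without CD11c- 2) and Fscn1 (6.64 without CD11c- 1). Ccl5, Ccl17, Ccl22 and Cxcl9 were the called members of 25 chemokines measured, where 1.37% of all genes were higher, and none fell by the test, although the list's median was -0.82 and so on the other side of 0. The monocyte-attracting Ccl2 stood at 1972 and 1355 against 735 and 520.4 CPM and Ccl7 at 2854 and 1969 against 1002 and 734 CPM, neither called (adjusted p = 0.214 and 0.196).

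Fscn1 and Ccl22 also stand in the list of dendritic cell markers. Of 21 measured, 4 were higher, against 1.37% of all genes, and none lower, namely Fscn1, Ccl22, Cacnb3 and Socs2. Whichever of the 4 libraries was left out, 1 of them was still called, Fscn1 or Socs2. The summed level of the list was 450.3 and 222 CPM in the CD11c- libraries and 927 and 566 CPM in the CD11c+ libraries. Ccr7, the receptor that guides mature dendritic cells to lymph nodes, stood at 18.2 and 7.91 CPM in CD11c- and 204 and 94.6 CPM in CD11c+ cells and was called only with the block (adjusted p = 0.103, or 0.0213 with the block). The lineage markers were low in all 4 libraries: Zbtb46 did not exceed 3.62 CPM, Flt3 4.66 CPM, Xcr1 1.69 CPM and Clec9a 1.21 CPM. The part of dendritic cells in the difference was not tested.

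Genes of antigen presentation by MHC class II were mostly at higher levels in CD11c+ cells, but a single one passed the test. H2-DMb2, a chain of the H2-DM chaperone that helps to load peptide, stood at 9.57 and 4.05 CPM in CD11c- and 35.4 and 33.7 CPM in CD11c+ cells (log2FC 2.34 ± 0.44, adjusted p = 0.00694). Of 16 genes measured, 1 was higher, against 1.37% of all genes, and none lower, with a median log2 fold change of 1.16 and with 12 lying higher without overlap, against 21.7% of all genes. Their summed level was 28878 and 21428.5 CPM in the CD11c- libraries and 47246 and 43696 CPM in the CD11c+ libraries. The class II chain H2-Eb1 stood at 1286.5 and 859.8 CPM in CD11c- and 3651 and 2971 CPM in CD11c+ cells, above in both CD11c+ libraries but not called (adjusted p = 0.11). Cd74, the invariant chain, stood at 10055.5 and 5219 against 18471 and 14852 CPM (adjusted p = 0.184). With the block, 4 members were higher, where 2.20% of all genes were. H2-Eb1 was among them (adjusted p = 0.0476). In the WT cells of the ARG1 chimeras, 9 of the 16 were higher (median 1.81), where 1.98% of all genes were. In the libraries labelled Il9r KO only 1 was higher (median 0.54), where 2.80% of all genes were. Among 17 costimulatory and checkpoint ligands 1 was called, against 3.06% of all genes. Pdcd1lg2, which encodes the PD-1 ligand PD-L2, rose from 1.19 and 0.398 to 13.7 and 7.50 CPM (log2FC 3.73 ± 0.97, adjusted p = 0.043). Leave-outs of 1 library ended the calls of H2-DMb2 (CD11c- 2, 1.85) and Pdcd1lg2 (any, 3.15 to 4.73), at adjusted p from 0.0525 to 0.174. A shift of over 1.5-fold without loss of the call was seen for H2-DMb2 (3.09 without CD11c- 1).

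Genes of lipid-associated macrophages, cells rich in lysosomes and lipid-handling proteins, made up the function list with the most genes called higher. Of 26 measured, 10 were higher, against 1.37% of all genes, and none lower, with a median log2 fold change of 0.75. The list was not of one direction, since 7 members had a negative value. Without overlap 15 lay higher and 6 lower, against 21.7% and 22.0% of all genes. With the block 12 were higher and 1 lower, against 2.20% and 2.60% of all genes. In the WT cells of the ARG1 chimeras 10 were higher and 1 lower, against 1.98% and 1.92% of all genes. In the libraries labelled Il9r KO 12 were higher and 1 lower, against 2.80% and 3.14%. The genes named below are the called ones, and the 7 members with a negative value are not named here. Cd63, a tetraspanin of lysosome membranes, stood at 518.5 and 679.8 CPM in CD11c- and 1561 and 1817 CPM in CD11c+ cells (log2FC 1.50 ± 0.21, adjusted p = 0.000753). Its CD11c+ values were more than double the CD11c- values in both libraries. Pld3, a lysosomal nuclease, stood at 503 and 653 CPM in CD11c- and 1291 and 1736 CPM in CD11c+ cells (log2FC 1.39 ± 0.20, adjusted p = 0.000836). Cd9, another tetraspanin, stood at 323 and 200.3 CPM in CD11c- and 1269 and 2120.4 CPM in CD11c+ cells (log2FC 2.70 ± 0.41, adjusted p = 0.0012). Mmp12, the macrophage elastase, stood at 161 and 49.5 CPM in CD11c- and 898 and 962.5 CPM in CD11c+ cells (log2FC 3.14 ± 0.52, adjusted p = 0.0032). It was the least even of these in CD11c- cells, library 1 holding over 3 times the level of library 2. The remaining called members were Gpnmb, the fatty acid binding proteins Fabp4 and Fabp5, the lysosomal protease Ctsd, the lysosomal lipase Lipa and the cholesterol exporter Abcg1, with log2 fold changes from 0.96 to 2.23. With 1 library removed, the test was no longer passed by Gpnmb (CD11c- 1 or CD11c- 2 or CD11c+ 2, 2.06 to 2.33), Fabp4 (CD11c- 1 or CD11c+ 2, 1.27 to 1.52), Fabp5 (CD11c- 1, 1.34), Ctsd (CD11c- 1 or CD11c+ 2, 0.78 to 0.88), Lipa (any, 0.83 to 1.10) and Abcg1 (CD11c- 1 or CD11c+ 2, 1.06 to 1.29), at adjusted p from 0.0544 to 0.359. Cd63, Pld3, Cd9 and Mmp12 kept their calls without any one of the 4 libraries. Fold changes that moved over 1.5-fold with the call kept were those of Mmp12 (4.23 without CD11c- 1 and 2.53 without CD11c- 2) and Fabp4 (2.91 without CD11c- 2).

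Genes that macrophages use to fuse and to resorb matrix, best known from osteoclasts, were split. Dcstamp (chr15:39745930-39760938), a membrane protein needed for macrophage fusion, stood at 0.726 and 0.572 CPM in CD11c- and 23.4 and 19.2 CPM in CD11c+ cells, nearly absent from the CD11c- libraries (log2FC 5.03 ± 0.78, adjusted p = 0.00159). Acp5, the tartrate-resistant acid phosphatase, stood at 129.8 and 196.5 CPM in CD11c- and 444 and 735 CPM in CD11c+ cells (log2FC 1.85 ± 0.27, adjusted p = 0.000893). Ctsk, the collagen-degrading cathepsin K, stood at 54.8 and 50.2 CPM in CD11c- and 263 and 1376 CPM in CD11c+ cells and was uneven between the CD11c+ libraries (log2FC 3.96 ± 0.72, adjusted p = 0.00607). Atp6v0d2, a subunit of the proton pump that acidifies lysosomes, stood at 42.6 and 46.5 CPM in CD11c- and 218 and 609.5 CPM in CD11c+ cells, likewise higher in CD11c+ library 2 (log2FC 3.21 ± 0.58, adjusted p = 0.00504). By contrast Tnfrsf11a, the receptor RANK through which osteoclast formation is induced, fell (log2FC -1.03 ± 0.20, adjusted p = 0.00767), as did the gelatinase Mmp9 (log2FC -1.85 ± 0.44, adjusted p = 0.0269). In all, 4 of 19 measured genes were higher and 2 lower, against 1.37% and 1.69% of all genes. Calls that ended on removal of 1 library were those of Ctsk (CD11c- 1 or CD11c+ 2, 2.33 to 4.03), Atp6v0d2 (CD11c- 1 or CD11c+ 2, 2.29 to 3.15), Tnfrsf11a (CD11c+ 1 or CD11c+ 2, -1.13 to -0.93) and Mmp9 (CD11c- 1 or CD11c+ 1 or CD11c+ 2, -1.99 to -1.63), at adjusted p from 0.0647 to 0.237. Dcstamp and Acp5 kept their calls without any one of the 4 libraries. The call held but the fold moved over 1.5-fold for Ctsk (4.71 without CD11c+ 1).

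Markers of alveolar macrophages stood out among the genes highest in CD11c+ cells, and they differed widely between the CD11c+ libraries. Of 21 measured, 8 were higher, against 1.37% of all genes, and none lower, with a median log2 fold change of 3.41. Perp, a membrane protein of cell junctions, had no read in either CD11c- library and stood at 4.16 and 28.4 CPM in the CD11c+ libraries. Against a floor of 3 reads per CD11c- library the mean of the CD11c+ libraries was at least 231-fold higher (adjusted p = 0.0227). That mean of Perp rested mostly on CD11c+ library 2, which held 6.82 times the level of library 1. Plet1, a membrane glycoprotein of alveolar macrophages, stood at 0.308 and 0.522 CPM in CD11c- and 15.9 and 142 CPM in CD11c+ cells (log2FC 7.58 ± 1.48, adjusted p = 0.00936), Krt19, a keratin, at 0.154 and 0 CPM in CD11c- and 1.33 and 30.6 CPM in CD11c+ cells (log2FC 7.58 ± 2.00, adjusted p = 0.0474), and Chil3, a chitinase-like protein that alveolar macrophages make in quantity, at 376 and 392 CPM in CD11c- and 682 and 5943 CPM in CD11c+ cells (log2FC 3.11 ± 0.79, adjusted p = 0.0385). CD11c+ library 2 held 23.1 times the Krt19, 8.97 times the Plet1 and 8.71 times the Chil3 of library 1, so that most of the signal of each was in 1 library. The summed level of the list was 570.3 and 554.5 CPM in the CD11c- libraries and 1162 and 7254 CPM in the CD11c+ libraries, and without Chil3 it was 194 and 163 against 479.7 and 1310.4 CPM. The defining markers Siglecf and Marco were low throughout, at 1.01 and 1.19 against 4.56 and 8.28 CPM for Siglecf and 4.27 and 1.77 against 1.28 and 2.26 CPM for Marco, and Pparg, the regulator of alveolar macrophage identity, stood at 67.9 and 40.9 against 54.4 and 54.1 CPM. Without CD11c+ library 2 none of the 21 was called, and the list's median was 2.17. None was called without CD11c- library 1 either, 3 were called without CD11c- library 2 and 8 without CD11c+ library 1. In the libraries labelled Il9r KO 14 of the 21 were higher (median 4.11), where 2.80% of all genes were. In the WT cells of the ARG1 chimeras 6 were higher (median 1.87), where 1.98% of all genes were. The part of alveolar macrophages in the difference was not tested.

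Some other called genes were uneven within a pair as well. Of 177 genes called higher with at least 5 CPM, 27 lay over 2-fold apart between the CD11c+ libraries, 23 of them higher in library 2, and 27 lay as far apart between the CD11c- libraries, 16 of them higher in library 1. Of 226 genes called lower, 15 lay over 2-fold apart between the CD11c+ libraries and 23 between the CD11c- libraries. Over all well-expressed genes these shares were the 3.18% and 10.5% given above. Those genes had a mean log2 CPM of at least 3 over the tumor libraries. The called genes needed 5 CPM on their higher side only and can be near 0 on the other, so the sets are not alike. Among the 10 highest genes, Mgll, the lipase that cleaves monoacylglycerol, stood at 0.550 and 0.821 CPM in CD11c- and 13.6 and 48.0 CPM in CD11c+ cells (log2FC 5.49 ± 0.94, adjusted p = 0.0039), and Ffar4, a receptor for long-chain fatty acids, at 0.374 and 0.323 CPM in CD11c- and 6.16 and 18.5 CPM in CD11c+ cells (log2FC 5.13 ± 1.39, adjusted p = 0.0492). Both were higher in CD11c+ library 2. Vash1, an enzyme that trims tubulin and is known as an inhibitor of vessel growth, was even at 0.0880 and 0.124 CPM in CD11c- and 5.80 and 5.58 CPM in CD11c+ cells (log2FC 5.71 ± 1.29, adjusted p = 0.0192). When single libraries were left out, the call was lost for Perp (CD11c- 1 or CD11c- 2 or CD11c+ 2), Plet1 (CD11c- 1 or CD11c- 2 or CD11c+ 2, 5.26 to 7.99), Krt19 (CD11c- 1 or CD11c- 2 or CD11c+ 2, 4.00 to 6.67), Chil3 (CD11c- 1 or CD11c- 2 or CD11c+ 2, 0.83 to 3.14), Mgll (CD11c- 1, 5.22), Ffar4 (any, 4.13 to 5.72) and Vash1 (any, 5.48 to 5.97), at adjusted p from 0.0555 to 0.661. While the call held, the fold moved by over 1.5 times for Plet1 (8.42 without CD11c+ 1), Krt19 (8.52 without CD11c+ 1), Chil3 (3.95 without CD11c+ 1) and Mgll (6.13 without CD11c+ 1 and 4.31 without CD11c+ 2).

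**Figure D2:**
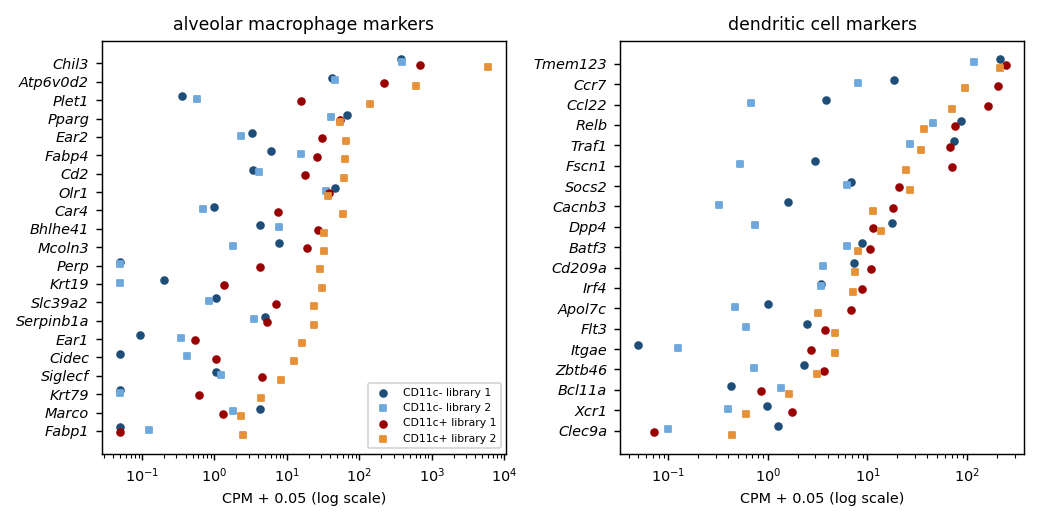
CPM plus 0.05 (log scale) of the alveolar macrophage markers (left) and dendritic cell markers (right) that reached 1 CPM in at least 1 library; each point is 1 of the 4 libraries. CD11c+ library 2 (orange squares) is the highest in most alveolar markers, with Chil3 at 5943.2 CPM, while CD11c+ library 1 (red circles) is the higher of the pair for Ccl22, Ccr7 and Fscn1.

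Several genes of the Lyve1+ perivascular interstitial macrophage were lower in CD11c+ cells. Of 29 measured markers, 5 were lower and 1 was higher, against 1.69% and 1.37% of all genes, with a median log2 fold change of -0.92. Lyve1 (chr7:110850607-110863239), a hyaluronan receptor, stood at 18.7 and 79.5 CPM in CD11c- and 0.989 and 3.54 CPM in CD11c+ cells (log2FC -4.45 ± 1.08, adjusted p = 0.0306). Library 2 was the higher of both pairs. F13a1, the A subunit of clotting factor XIII, stood at 1320.2 and 1176 CPM in CD11c- and 268 and 249 CPM in CD11c+ cells, close within each pair (log2FC -2.27 ± 0.27, adjusted p = 0.000267). Cbr2, a carbonyl reductase, stood at 299.8 and 743.5 CPM in CD11c- and 61.1 and 57.6 CPM in CD11c+ cells (log2FC -3.14 ± 0.45, adjusted p = 0.000836), and Folr2, a folate receptor of tissue macrophages, at 346 and 674 CPM in CD11c- and 82.4 and 79.5 CPM in CD11c+ cells (log2FC -2.66 ± 0.60, adjusted p = 0.0192). Ednrb (chr14:103814625-103844402), the endothelin receptor B, stood at 143 and 249 CPM in CD11c- and 13.4 and 17.0 CPM in CD11c+ cells (log2FC -3.69 ± 0.51, adjusted p = 0.000753). In each of these 5 genes both CD11c- values lay above both CD11c+ values, and no called gene overlapped. The exception, Igf1, a growth factor, stood at 54.8 and 31.0 CPM in CD11c- and 174 and 166 CPM in CD11c+ cells and so was higher in CD11c+ cells (log2FC 1.99 ± 0.47, adjusted p = 0.0253). Cd163, the haemoglobin scavenger receptor, stood at 33.1 and 276.5 CPM in CD11c- and 4.29 and 26.6 CPM in CD11c+ cells and was called only with the block (adjusted p = 0.117, or 0.00113 with the block). Under the block 8 markers were lower and 2 higher, against 2.60% and 2.20% of all genes. On leaving out 1 library at a time, calls were lost for Lyve1 (any, -5.63 to -3.06), Folr2 (CD11c- 2 or CD11c+ 1 or CD11c+ 2, -2.68 to -2.10) and Igf1 (any, 1.63 to 2.46), at adjusted p from 0.0553 to 0.225. F13a1, Cbr2 and Ednrb kept their calls without any one of the 4 libraries. A shift of over 1.5-fold without loss of the call was seen for Cbr2 (-2.34 without CD11c- 2).

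Of 17 markers of monocytes 2 were lower in CD11c+ cells, against 1.69% of all genes, and none was higher. Ccr2, the receptor that brings monocytes into tissue, stood at 753 and 428 CPM in CD11c- and 320.1 and 211 CPM in CD11c+ cells (log2FC -1.15 ± 0.31, adjusted p = 0.0456). The median of the list was -1.15, with 2 members lower without CD11c- library 2, none without any other of the 4 libraries, and 6 lower under the block, where 2.60% of all genes were. Ly6c2, the Ly6C antigen of classical monocytes, stood at 476 and 752 CPM in CD11c- and 124 and 137 CPM in CD11c+ cells and was not called (adjusted p = 0.0989, or 0.0213 with the block). Summed, the monocyte markers stood at 4887 and 3705 CPM in the CD11c- libraries and 2647 and 2140.1 CPM in the CD11c+ libraries, and their part in the genes lower in CD11c+ cells was not tested. Outside the list, Padi4, an enzyme that converts arginine in histones to citrulline, stood at 106 and 97.9 CPM in CD11c- and 13.5 and 5.61 CPM in CD11c+ cells (log2FC -3.41 ± 0.47, adjusted p = 0.000753), and Slfn4, a schlafen protein of myeloid cells, at 62.7 and 34.2 CPM in CD11c- and 2.36 and 6.75 CPM in CD11c+ cells (log2FC -3.42 ± 0.58, adjusted p = 0.00379). Reads of Slfn4 may be shared with its near copies in the schlafen cluster. Leave-outs of 1 library ended the calls of Ccr2 (CD11c- 1 or CD11c+ 1 or CD11c+ 2, -1.48 to -0.69) and Slfn4 (CD11c+ 1, -2.84), at adjusted p from 0.0512 to 0.425. Padi4 kept its call without any one of the 4 libraries. Fold changes that moved over 1.5-fold with the call kept were those of Padi4 (-4.18 without CD11c+ 1) and Slfn4 (-4.36 without CD11c+ 2).

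Some complement genes were lower in CD11c+ cells. C4b, an opsonin precursor, stood at 216 and 142 CPM in CD11c- and 23.8 and 38.7 CPM in CD11c+ cells (log2FC -2.52 ± 0.48, adjusted p = 0.00744). Cfp, or properdin, which stabilises the alternative pathway convertase, stood at 1710.4 and 1627 CPM in CD11c- and 662 and 551 CPM in CD11c+ cells (log2FC -1.46 ± 0.28, adjusted p = 0.00817), and Cfb, the protease factor B of that convertase, at 1222 and 988 CPM in CD11c- and 307 and 424 CPM in CD11c+ cells (log2FC -1.60 ± 0.35, adjusted p = 0.0184). C5ar1, the receptor for C5a, stood at 1897 and 1669 CPM in CD11c- and 924 and 776 CPM in CD11c+ cells (log2FC -1.07 ± 0.24, adjusted p = 0.0187). In all 4 the CD11c- libraries were the higher. With Itgam, these were 5 lower of 22 measured, against 1.69% of all genes, the gate gene Itgax being the single one higher, while the C1q chains C1qa, C1qb and C1qc had log2 fold changes of 0.10, -0.22 and 0.14. With 1 library removed, the test was no longer passed by C4b (CD11c- 1 or CD11c+ 1 or CD11c+ 2, -2.91 to -2.19), Cfp (CD11c- 1 or CD11c+ 2, -1.42 to -1.33), Cfb (CD11c- 1 or CD11c+ 1 or CD11c+ 2, -1.85 to -1.38) and C5ar1 (CD11c- 1 or CD11c+ 1 or CD11c+ 2, -1.20 to -0.95), at adjusted p from 0.0553 to 0.21.

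Among scavenger and efferocytosis receptors, 1 of 23 measured was higher and 2 were lower, against 1.37% and 1.69% of all genes, which is too few calls to say anything of the list. Cd5l, a secreted protein that keeps macrophages alive, stood at 132 and 323 CPM in CD11c- and 18.3 and 27.0 CPM in CD11c+ cells (log2FC -3.33 ± 0.66, adjusted p = 0.00936), and Msr1, the class A scavenger receptor, at 1209.8 and 727 CPM in CD11c- and 456.5 and 386 CPM in CD11c+ cells (log2FC -1.20 ± 0.23, adjusted p = 0.00694). Both were higher in the CD11c- libraries. Mfge8, a bridge to phosphatidylserine on dying cells, stood at 18.5 and 18.7 CPM in CD11c- and 85.4 and 145 CPM in CD11c+ cells, the reverse order (log2FC 2.63 ± 0.52, adjusted p = 0.00923). The lowest log2 fold changes further included Fam20a, a pseudokinase of the secretory pathway, at 44.8 and 64.6 CPM in CD11c- and 2.86 and 4.52 CPM in CD11c+ cells (log2FC -3.89 ± 0.58, adjusted p = 0.00114), and Gja1, the gap junction protein connexin 43, at 57.4 and 45.3 CPM in CD11c- and 5.31 and 5.58 CPM in CD11c+ cells (log2FC -3.24 ± 0.62, adjusted p = 0.00767). Calls that ended on removal of 1 library were those of Cd5l (CD11c+ 1 or CD11c+ 2, -3.64 to -3.08), Msr1 (CD11c- 1 or CD11c+ 2, -1.08 to -0.79), Mfge8 (CD11c- 1 or CD11c- 2 or CD11c+ 2, 2.20 to 2.64) and Gja1 (CD11c+ 1 or CD11c+ 2, -3.27 to -3.20), at adjusted p from 0.051 to 0.125. Fam20a kept its call without any one of the 4 libraries. The call held but the fold moved over 1.5-fold for Cd5l (-2.54 without CD11c- 2).

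Interferon-stimulated genes lay on the CD11c- side throughout. Type I interferon acts through a complex that includes STAT2 and IRF9 and binds the interferon-stimulated response element in the promoters of target genes. The promoters of 4 called genes are shown because they carry the core of this element, GAAANNGAAA, on either strand (250 bases before to 50 after the gene's start, 5′ to 3′ on the gene's strand, from RefSeq, GRCm38.p6). Capitals mark each match. The windows lie at chr4:40239776-40240075 on the minus strand, chr19:34583279-34583578 on the plus strand, chr5:120777610-120777909 on the minus strand and chr10:128270248-128270547 on the plus strand.
Ddx58: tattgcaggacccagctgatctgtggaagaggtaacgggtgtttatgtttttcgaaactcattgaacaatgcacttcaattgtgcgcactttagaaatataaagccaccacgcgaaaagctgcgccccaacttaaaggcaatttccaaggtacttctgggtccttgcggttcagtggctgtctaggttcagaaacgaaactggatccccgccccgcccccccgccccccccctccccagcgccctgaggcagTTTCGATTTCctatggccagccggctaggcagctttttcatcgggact
Ifit3: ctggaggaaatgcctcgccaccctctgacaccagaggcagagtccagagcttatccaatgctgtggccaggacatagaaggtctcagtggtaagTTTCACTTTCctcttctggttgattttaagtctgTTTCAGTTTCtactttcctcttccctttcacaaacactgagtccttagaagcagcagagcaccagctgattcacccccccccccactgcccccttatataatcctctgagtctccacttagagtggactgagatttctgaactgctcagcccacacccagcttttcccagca
Oas3: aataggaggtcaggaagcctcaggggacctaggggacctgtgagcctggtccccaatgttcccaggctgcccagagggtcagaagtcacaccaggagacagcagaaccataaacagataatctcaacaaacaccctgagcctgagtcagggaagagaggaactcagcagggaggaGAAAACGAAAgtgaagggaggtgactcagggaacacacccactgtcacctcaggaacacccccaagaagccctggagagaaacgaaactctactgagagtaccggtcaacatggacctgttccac
Stat2: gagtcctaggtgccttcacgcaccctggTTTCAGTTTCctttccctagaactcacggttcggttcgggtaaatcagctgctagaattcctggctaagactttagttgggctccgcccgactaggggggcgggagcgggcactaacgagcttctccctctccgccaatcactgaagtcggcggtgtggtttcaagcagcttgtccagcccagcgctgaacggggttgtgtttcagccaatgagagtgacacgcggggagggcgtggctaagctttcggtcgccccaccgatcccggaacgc

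The matches begin at base 3 after the start in Ddx58, at -156 and -122 in Ifit3, at -75 in Oas3 and at -222 in Stat2. The motif was in 17 of 27 interferon-stimulated genes that had a promoter in the table (63.0%), and in 1131 of all 32851 windows (3.44%). It was in 4 of 10 matched genes that were called and in 13 of 17 that were not. A match is a description of the letters, not of a bound site.

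Of 34 interferon-stimulated genes measured, 13 were lower in CD11c+ cells and none higher, where 1.69% of all genes were lower. Their median log2 fold change was -1.46, and each of the 34 had a negative value. Oas2 (chr5:120730333-120749853), one of the oligoadenylate synthetases that sense double-stranded RNA, stood at 46.6 and 30.9 CPM in CD11c- and 4.61 and 1.81 CPM in CD11c+ cells (log2FC -3.59 ± 0.42, adjusted p = 0.000267). Oas3, its larger relative, stood at 105.5 and 111 CPM in CD11c- and 31.9 and 22.5 CPM in CD11c+ cells (log2FC -1.99 ± 0.32, adjusted p = 0.00224). The CD11c- libraries were at least 3 times as high as the CD11c+ ones in both genes. Stat2, a transcription factor of the pathway itself, stood at 139 and 63.2 CPM in CD11c- and 23.9 and 19.5 CPM in CD11c+ cells (log2FC -2.22 ± 0.39, adjusted p = 0.00434). Ifit3, an antiviral protein, stood at 268 and 166 CPM in CD11c- and 76.4 and 51.9 CPM in CD11c+ cells (log2FC -1.76 ± 0.31, adjusted p = 0.00448). Irf7, the factor that amplifies interferon production, stood at 1304 and 1331 CPM in CD11c- and 294 and 274 CPM in CD11c+ cells (log2FC -2.21 ± 0.59, adjusted p = 0.0473). In these 5 genes, as in every gene called, the groups did not overlap. Ddx58, which encodes the RNA sensor RIG-I, had a log2 fold change of -1.15 (adjusted p = 0.0409), and Ifit2, Cmpk2, Rtp4, Zbp1, Oasl1, Oasl2 and Xaf1 were the remaining called members, between -1.99 and -1.33. Reads may be shared between near copies such as Ifit3 and Ifit3b or Oasl1 and Oasl2.

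The log2 fold changes nearest to 0 were those of the guanylate-binding proteins Gbp2, Gbp3 and Gbp5, which interferon gamma also induces, at -0.52, -0.40 and -0.26, none called. The summed level of the list was 8856 and 8409.7 CPM in the CD11c- libraries and 3305 and 2449.5 CPM in the CD11c+ libraries, and in 31 of 34 genes the libraries did not overlap. The number called depended on single libraries, being 1 without CD11c+ library 2, 2 without CD11c- library 1, 7 without CD11c+ library 1 and 13 without CD11c- library 2. The median was -1.13 without CD11c- library 1, -1.25 without CD11c+ library 2, -1.58 without CD11c+ library 1 and -1.62 without CD11c- library 2. With the block 21 were lower, where 2.60% of all genes were. In the ARG1 chimeras 9 of the 34 were lower in WT CD11c+ cells (median -0.98), against 1.92% of all genes. In the libraries labelled Il9r KO 26 were lower (median -1.64), against 3.14% of all genes. When single libraries were left out, the call was lost for Oas3 (CD11c+ 2, -1.76), Stat2 (CD11c- 1 or CD11c+ 2, -2.08 to -1.54), Ifit3 (CD11c- 1 or CD11c+ 2, -1.51 to -1.37), Irf7 (any, -2.26 to -2.17) and Ddx58 (CD11c- 1 or CD11c+ 1 or CD11c+ 2, -1.36 to -0.62), at adjusted p from 0.0661 to 0.454. Oas2 kept its call without any one of the 4 libraries. While the call held, the fold moved by over 1.5 times for Oas2 (-4.42 without CD11c+ 1).

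**Figure D3:**
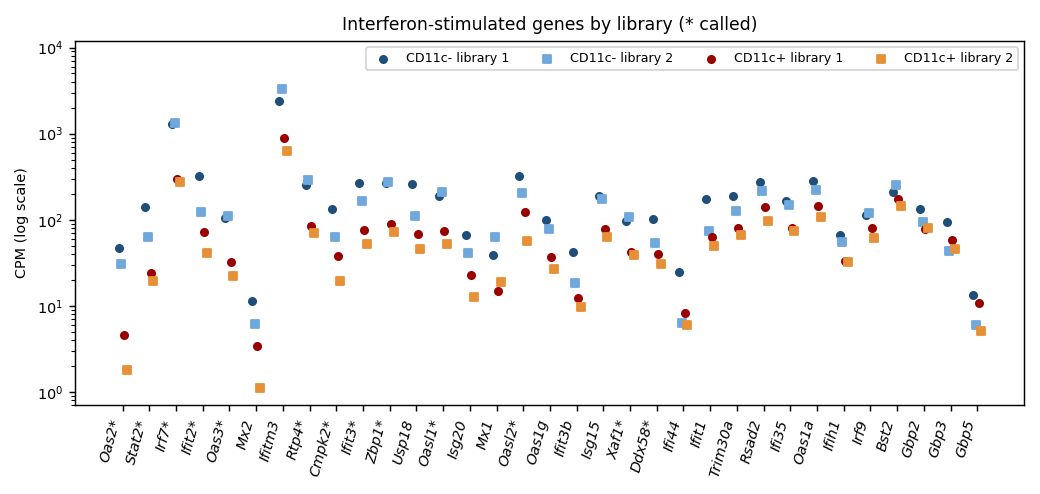
CPM (log scale) of 33 interferon-stimulated genes in each of the 4 libraries, ordered by log2 fold change; an asterisk marks the 13 genes called lower in CD11c+ cells. Blue CD11c- points lie above red and orange CD11c+ points in 30 genes, and the groups overlap in 3.

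The conditional knockout of the second kind of chimera targets Arg1, a gene of arginine metabolism. Arg1 (chr10:24915221-24927484), the arginase that turns arginine into ornithine, stood at 3343 and 4471.5 CPM in CD11c- and 1029 and 1039.9 CPM in CD11c+ cells. Both CD11c- libraries were over 3 times as high as both CD11c+ libraries, but the difference was not called (log2FC -1.92 ± 0.66, adjusted p = 0.132), while with the block it was (adjusted p = 0.0255). In the ARG1 chimeras' WT cells its log2 fold change was -1.46 (adjusted p = 0.143), and in the libraries labelled Il9r KO -2.39 (adjusted p = 0.0111). Of 26 arginine and polyamine genes measured, 1 was higher and none lower, a share near the 3.06% of all genes called in either direction. Slc7a2, a cationic amino acid transporter that brings arginine into the cell, stood at 13.0 and 11.9 CPM in CD11c- and 42.4 and 112 CPM in CD11c+ cells (log2FC 2.63 ± 0.59, adjusted p = 0.0187). CD11c+ library 2 held over 2-fold the level of library 1.

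Of 17 genes for IL-9 reception, JAK-STAT signalling and its feedback, 1 was higher and 1 lower, against 1.37% and 1.69% of all genes. Socs2, a feedback inhibitor of JAK-STAT signalling, stood at 6.76 and 6.17 CPM in CD11c- and 20.6 and 26.7 CPM in CD11c+ cells (log2FC 1.87 ± 0.35, adjusted p = 0.00675). Il4ra, the receptor chain shared by interleukins 4 and 13, stood at 804.5 and 869.5 CPM in CD11c- and 274 and 305 CPM in CD11c+ cells (log2FC -1.53 ± 0.30, adjusted p = 0.00905), so each CD11c- library held over 2 times the level of each CD11c+ library. The transcription factors called were Bhlhe41, a repressor active in tissue macrophages, at 4.25 and 7.66 against 26.7 and 32.9 CPM (log2FC 2.32 ± 0.48, adjusted p = 0.0113), and Egr3, an early response factor (log2FC 2.08 ± 0.51, adjusted p = 0.0306), 2 of 36 measured, where 3.06% of all genes were called. Bhlhe41 was also called in the ARG1 chimeras' WT cells (log2FC 1.87) and in the libraries labelled Il9r KO (2.28). Egr3 was called in neither (0.32 and -0.18). On leaving out 1 library at a time, calls were lost for Slc7a2 (CD11c- 1 or CD11c- 2 or CD11c+ 2, 1.77 to 2.70), Socs2 (CD11c- 1 or CD11c+ 2, 1.67 to 1.94), Il4ra (CD11c+ 1 or CD11c+ 2, -1.61 to -1.46), Bhlhe41 (CD11c- 1 or CD11c+ 2, 1.96 to 2.17) and Egr3 (any, 1.71 to 2.58), at adjusted p from 0.0625 to 0.25.

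Of 23 growth factors, 4 were higher, Igf1 as above, Vegfb, Pdgfa and Gdf15, and Bmp2, a bone morphogenetic protein, was lower, against 1.37% and 1.69% of all genes. None of the list was called whichever of the 4 libraries was left out. In the WT cells of the ARG1 chimeras 4 growth factors were higher and 1 lower, against 1.98% and 1.92% of all genes. In the libraries labelled Il9r KO none was higher and 1 was lower, against 2.80% and 3.14%. Pdgfa, a platelet-derived growth factor chain, stood at 9.73 and 9.20 CPM in CD11c- and 37.1 and 31.2 CPM in CD11c+ cells (log2FC 1.85 ± 0.46, adjusted p = 0.0332). Bmp2 stood at 20.6 and 17.7 CPM in CD11c- and 4.70 and 2.12 CPM in CD11c+ cells (log2FC -2.49 ± 0.64, adjusted p = 0.0384). Of 30 matrix and protease genes, Mmp12, Ctsk and Mmp2 were higher and Thbs1 and Mmp9 lower, again beside those shares. Mmp2, a gelatinase, stood at 0.880 and 0.696 CPM in CD11c- and 13.9 and 9.29 CPM in CD11c+ cells (log2FC 3.87 ± 0.77, adjusted p = 0.00923). Thbs1, or thrombospondin-1, an inhibitor of vessel growth, stood at 4020.0 and 2093 CPM in CD11c- and 886 and 613 CPM in CD11c+ cells (log2FC -2.03 ± 0.38, adjusted p = 0.00694). Leave-outs of 1 library ended the calls of Vegfb (any, 1.71 to 2.01), Pdgfa (any, 1.72 to 1.97), Gdf15 (any, 1.23 to 1.81), Bmp2 (any, -3.17 to -2.03), Mmp2 (CD11c- 1 or CD11c- 2, 3.72 to 4.05) and Thbs1 (CD11c- 1 or CD11c+ 2, -1.79 to -1.48), at adjusted p from 0.0516 to 0.326.

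Metabolic lists gave few calls, against 1.37% of all genes higher and 1.69% lower. With the block these shares were 2.20% and 2.60%. Among 29 glycolysis and hypoxia genes none was higher and 2 were lower, Pfkfb3, which makes the activator of phosphofructokinase (log2FC -1.07 ± 0.19, adjusted p = 0.00455), and Hif1a, the hypoxia-inducible factor (log2FC -1.20 ± 0.29, adjusted p = 0.0306), with a median of -0.60 and 5 lower under the block. This median was -0.17 without CD11c- library 1 and between -0.95 and -0.57 without any other of the 4 libraries. In the WT cells of the ARG1 chimeras none was higher and 5 were lower (median -0.55), where 1.92% of all genes were lower. In the libraries labelled Il9r KO 1 was higher and none lower (median -0.34), where 2.80% of all genes were higher. Fdps, an enzyme that makes farnesyl diphosphate, stood at 35.8 and 24.7 CPM in CD11c- and 72.0 and 98.5 CPM in CD11c+ cells and rose (log2FC 1.49 ± 0.35, adjusted p = 0.0233), the single call of 33 genes of cholesterol and fatty acid synthesis, whose median was 0.75 and of which 4 were higher under the block. No gene of 30 for DNA replication and mitosis was called although 29 had a positive log2 fold change (median 1.18). None of 34 respiratory chain subunits was called (median 0.16), nor any of 6 genes of Fc gamma receptors (median -0.39). With 1 library removed, the test was no longer passed by Pfkfb3 (CD11c- 1 or CD11c+ 1 or CD11c+ 2, -1.13 to -0.97), Hif1a (CD11c- 1 or CD11c+ 1 or CD11c+ 2, -1.39 to -0.82) and Fdps (CD11c- 1 or CD11c- 2 or CD11c+ 2, 1.25 to 1.78), at adjusted p from 0.0502 to 0.302.

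**Figure D4:**
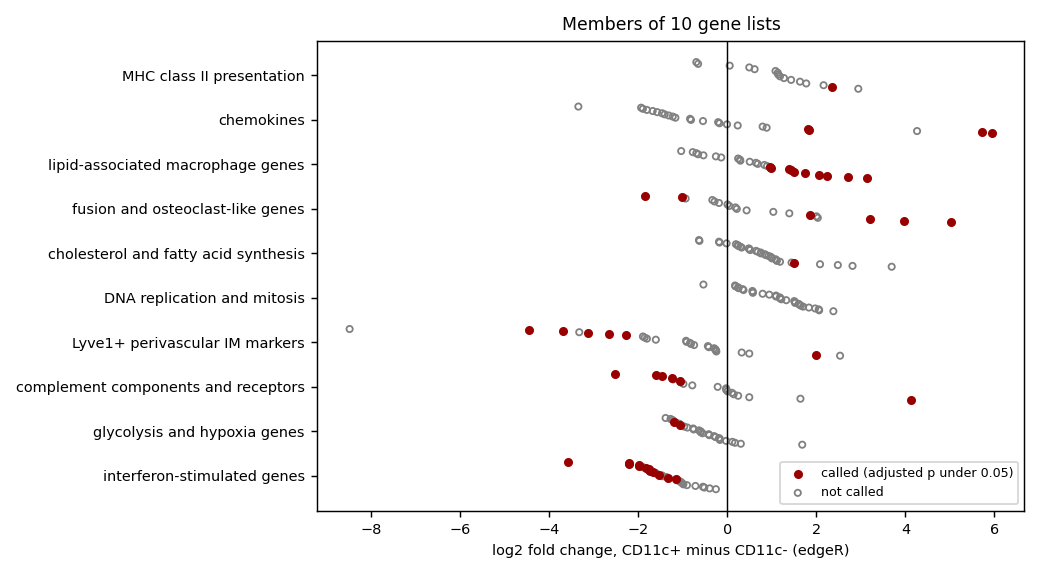
Log2 fold change (CD11c+ minus CD11c-) of each member of 10 gene lists that reached 1 CPM in at least 1 library and had reads in both groups; filled points passed an adjusted p of 0.05 and open points did not. The interferon-stimulated genes all lie left of 0, with 13 called, and the lipid-associated macrophage genes hold 10 called points right of 0.

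Markers of further cell types that a lung sort could hold were examined as well. T and NK cell markers summed to 51.3 and 32.9 CPM in the CD11c- libraries and 118 and 167 CPM in the CD11c+ libraries, with none of 16 called and with Cd3d, Cd3e and Cd3g at 2 to 33 reads per library together. With the block 2 of these markers were higher, where 2.20% of all genes were. They were Cd2 at 3.39 and 4.10 against 17.7 and 62.1 CPM (adjusted p = 0.0622, or 0.0417 with the block) and Il7r at 42.6 and 21.5 against 80.4 and 86.3 CPM (adjusted p = 0.0657, or 0.0346 with the block). Neutrophil, B and plasma cell, epithelial, fibroblast and muscle, erythroid and platelet, and mast cell, basophil and eosinophil lists gave no call. With the block, 1 neutrophil marker, Csf3r (adjusted p = 0.163, or 0.0423 with the block), and 1 B and plasma cell marker, Ms4a1 (adjusted p = 0.0644, or 0.0298 with the block), were lower, where 2.60% of all genes were. Of 12 endothelial markers, Vwf was higher and Lyve1, which perivascular macrophages also express, was lower, against 1.37% and 1.69% of all genes, and neither was called whichever of the 4 libraries was left out. Of 13 genes marking B16 melanoma cells, Gpnmb, which also stands in the lipid-associated macrophage list, and Mc1r were higher, against 1.37% of all genes. Gpnmb was called without CD11c+ library 1 but not on leaving out any other of the 4. The pigment genes Pmel, Mlana, Tyr, Tyrp1 and Dct summed to 90.3 and 124 CPM in the CD11c- libraries and 35.2 and 67.7 CPM in the CD11c+ libraries. Mc1r, the melanocortin receptor, had 1 read in the CD11c- and 165 in the CD11c+ libraries, a ratio of 176 (95% interval 31.1 to 6990, counting error only).

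The same contrast was available in WT cells of the ARG1 chimeras, whose libraries are different ones. There 266 genes were higher (1.98%) and 258 lower (1.92%) in CD11c+ cells, 3.90% together. Of the 184 genes higher in the IL9R chimeras, 125 were also higher in the ARG1 chimeras, which is 67.9% of the first list and 47.0% of the second. Of the 227 lower genes, 106 were shared, or 46.7% and 41.1%. None was called in opposite directions. Irrespective of the call, 182 of the 184 and 226 of the 227 had the same sign in the ARG1 chimeras, where 50.5% of all genes had a positive and 48.5% a negative log2 fold change. Over 8019 well-expressed genes the log2 fold changes had a Pearson correlation of 0.75 and a Spearman correlation of 0.65. That is a description over genes, which do not replicate each other. The genes were chosen in the IL9R chimeras, where the median of the higher ones was 1.82 against 1.22 in the ARG1 chimeras, and that of the lower ones -1.25 against -0.80.

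The difference of the contrast between the chimera kinds was tested gene by gene and gave 0 calls with edgeR (smallest adjusted p = 0.548, with 490 genes at an unadjusted p under 0.05), 0 with limma-voom and 15 with DESeq2. The log2 fold change of Oas2 was -3.59 in the IL9R and -1.06 in the ARG1 chimeras. That of Chil3 was 3.11 and 0.88, and without CD11c+ library 2 the first of these was 0.83. Dcstamp was the farther from 0 in the ARG1 chimeras, at 5.03 and 10.07, with a mean of 0.00835 CPM in their CD11c- WT libraries. None of these differences was called with edgeR. In the libraries labelled Il9r KO of the IL9R chimeras, the contrast gave 376 higher (2.80%) and 422 lower genes (3.14%), 5.94% together. Itgax had a log2 fold change there of 4.04, Ccl17 of 4.76, F13a1 of -2.50 and Oas2 of -1.56. Those 3 + 3 libraries in part carry the same library numbers, and possibly came from the same animals, as the 4 libraries described here. The difference between genotypes was not tested.

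**Figure D5:**
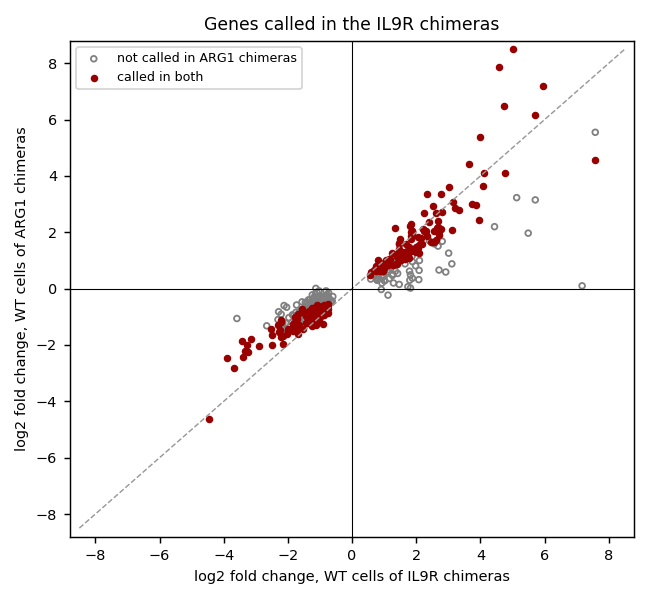
Log2 fold changes (CD11c+ minus CD11c-) of the genes called in WT cells of IL9R chimeras (x axis) against the same contrast in WT cells of ARG1 chimeras (y axis); red points were called in both and the dashed line marks equal values. The 7 called genes with no read in one group of the IL9R chimeras are left out and Dcstamp is drawn at the upper edge; nearly all points lie in the lower left or upper right of the plot.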

How the data were processed

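RNA was extracted with a QIAGEN micro kit and libraries were made with Clontech SMART-seq v4 and Nextera XT, per the labels' protocols; this chemistry does not mark strand, so overlapping antisense genes cannot be told apart. FastQC 0.11.5, STAR 2.7.10a, featureCounts and Subread 2.0.3 and the build mm10 are named in the submitters' processing notes. The authors deposited raw counts per gene (13482 genes, 25 libraries). The identifiers in the table matched the gene symbols in 271 of 12853 comparable rows, so genes were taken by symbol; positions are from GENCODE vM21.

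The counts of the 21 tumor libraries (8 groups) were fitted together in edgeR 4.0.16 (R 4.3.3; robust quasi-likelihood fit, TMM scaling, filterByExpr, 13434 genes kept, 13 residual degrees of freedom), so the spread of the 2 + 2 libraries was estimated with the others. Tests were two-sided and adjusted over all genes tested. Alternatives were DESeq2 1.42.0, limma-voom 3.58.1, DESeq-type (RLE) size factors, no filter, fewer libraries, a replicate block and leaving out single libraries. The main fit was also run on simulated independent libraries, which cannot show how it treats paired libraries or single uneven ones. Library numbers were taken to pair samples within the IL9R chimeras, because the deviations of same-numbered libraries from their group means correlated in all 3 pairs labelled Il9r KO (r = 0.20, 0.41 and 0.24) and in the WT pairs (0.28, equal by construction). Neither the 2 CD11c+ nor the 2 CD11c- WT libraries of the IL9R chimeras agreed within sampling noise, and other groups were not examined for this.

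The library set, gene lists and motif were chosen with earlier results of these data known. Named genes were Itgax, Itgam, Ptprc, Arg1 and Il9r; of the called genes reaching a mean of 5 CPM on their higher side, without overlap, those with the 10 top and 10 bottom log2 fold changes; and up to 4 called genes per function list by adjusted p. Genes named outside this rule (such as Ccr7, H2-Eb1, Cd163 and Ly6c2) were chosen after their values were seen. Some genes that the rule or lists hold are not reported here. Intervals and floors of 3 counts cover counting error only.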

Additional observations from a re-analysis of the deposited data

How the results depend on the processing

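No named call changed direction in any setting, while the number of calls varied. The main counts were 184 higher and 227 lower. DESeq2 gave 445 and 434, including all 411; the 10 WT tumor libraries alone gave 114 and 97, and the 4 libraries alone gave 36 and 35. The replicate block gave 295 and 349 within the full fit, and 398 and 424 with the 4 libraries alone. Leaving out 1 library gave between 34 and 241 higher and between 23 and 297 lower; the highest of these came without the Il9r KO CD11c+ library 3. For the ARG1 chimeras (524 in all), DESeq2 gave 1051, the 10 WT libraries 270, and leave-outs 159 to 626. For the libraries labelled Il9r KO (798 in all), DESeq2 gave 1255 and leave-outs 436 to 939. The difference between chimera kinds had 0 calls in each setting but DESeq2, which gave 15. Limma-voom, RLE factors and no filter kept each of these totals within 1.5 times. Of the 58 named genes called, 58 were called by DESeq2, with RLE factors and with the block, 45 by limma-voom, 51 with the 10 WT libraries, 27 with the 4 libraries alone and 20 to 35 without 1 of them; within the full fit the block changed no call among the named genes but that of Arg1, while with the 4 libraries alone it lost 3 of the 58, Krt19, Ctsk and Chil3. Ptprc, never called, had a log2 fold change of -0.54 in the full fit and between -1.08 and 0.34 in leave-outs, the latter without CD11c- library 1. The leave-outs for the ARG1 and Il9r KO contrasts were added after seeing the data. The causes of these changes were not tested.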

Other observations

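Among the 34 genes called in the full fit and in each of the 4 leave-outs, several belong to no list used above; they are named here after their values were seen. Anpep, the aminopeptidase CD13, stood at 45.4 and 44.8 CPM in CD11c- and 193 and 188 CPM in CD11c+ cells (log2FC 2.08 ± 0.25, adjusted p = 0.000267). Gstm1, a glutathione transferase, stood at 59.5 and 54.8 CPM in CD11c- and 233 and 283 CPM in CD11c+ cells (log2FC 2.17 ± 0.28, adjusted p = 0.000449), and its reads may be shared with other Gstm genes. Cd22, a sialic acid-binding receptor best known from B cells, stood at 22.3 and 14.6 CPM in CD11c- and 79.4 and 70.4 CPM in CD11c+ cells (log2FC 2.02 ± 0.29, adjusted p = 0.000836), while no gene of the B and plasma cell list was called. Plxnd1, a semaphorin receptor, stood at 21.4 and 32.0 CPM in CD11c- and 88.5 and 78.4 CPM in CD11c+ cells (log2FC 1.64 ± 0.21, adjusted p = 0.000449). All 4 were higher in both CD11c+ libraries.

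On the other side, Xdh, the xanthine dehydrogenase that makes uric acid, stood at 572 and 471.5 CPM in CD11c- and 134 and 184 CPM in CD11c+ cells (log2FC -1.71 ± 0.24, adjusted p = 0.000836). Slc28a2, a nucleoside transporter, stood at 389.9 and 326 CPM in CD11c- and 49.9 and 45.5 CPM in CD11c+ cells (log2FC -2.91 ± 0.40, adjusted p = 0.000753). Scarf1, a scavenger receptor, stood at 58.4 and 52.9 CPM in CD11c- and 13.2 and 11.0 CPM in CD11c+ cells (log2FC -2.20 ± 0.30, adjusted p = 0.000753). Adar, which edits adenosine to inosine in double-stranded RNA, stood at 128 and 76.2 CPM in CD11c- and 37.8 and 31.5 CPM in CD11c+ cells (log2FC -1.56 ± 0.22, adjusted p = 0.000836), and Pyhin1, a nucleic acid-binding protein of the interferon-inducible PYHIN family, at 339 and 196 CPM in CD11c- and 98.5 and 70.0 CPM in CD11c+ cells (log2FC -1.67 ± 0.24, adjusted p = 0.000836). These 5 were lower in both CD11c+ libraries. No explanation of these values was tested.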
